A study of Mus musculus with 8 samples.

Results

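Mitochondrial ribosomal proteins are the protein subunits of the ribosome inside mitochondria. The genes were chosen by symbol: each probe set annotated to exactly 1 gene whose symbol begins with Mrpl or Mrps and a number, with the set of highest mean over the 8 samples standing for the gene. This gave 73 of the 17097 genes measured, 46 of them Mrpl (large subunit by symbol) and 27 Mrps (small subunit by symbol). The genes Mrpl22, Mrpl45, Mrpl51, Mrps18c and Mrps28 were unnamed here on the platform annotation and were not analysed here, and 6 probe sets shared by Mrps25 or Mrps6 with a neighbouring gene were left out.

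Expression was profiled by microarray in dermal fibroblasts of 8 mice, with 1 array per animal. In the GW9662 group (n = 4), back skin received 150 nmol of GW9662 in 300 µl of acetone 3 times a week for 6 months, and in the vehicle group (n = 4) 300 µl of acetone without the compound on the same schedule. Treatment began at 12 months of age in both groups. No genetic change is named in the labels, and sex and strain are not given in the sources used here. GW9662 binds PPARG irreversibly and blocks it. The compound was applied to whole skin, so that any cell type there could have met it, while the arrays read fibroblasts only: cells positive for Pdgfra and CD34 and negative for CD45, CD117, CD24, CD31 and EpCam were sorted, and RNA of 5000 cells was amplified over 21 cycles. Animals were killed in pairs, a GW9662 and a vehicle animal on the same day, and equal replicate numbers were read as these pairs.

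The mitochondrial ribosome translates the few proteins encoded by mitochondrial DNA, which are core subunits of the oxidative phosphorylation complexes. Its own proteins are all encoded in the nucleus, made in the cytosol and imported, so that the large subunit, which joins amino acids, and the small subunit, which reads the messenger RNA, are assembled from many nuclear transcripts on mitochondrial ribosomal RNAs. Nuclear genes of mitochondrial function are known targets of the factors NRF1, GABPA and YY1 and of the PGC-1 coactivators, which also partner PPARG, a nuclear receptor of lipid metabolism.

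Values are log2 signals as the authors normalised them, and a difference of 1 is a factor of 2 in signal. The files used hold no detection calls, and members were not ranked by level. Signals were compared across probe sets or genes only to choose sets, to split genes at the median signal and to place markers. Sample medians lay between 4.63 and 4.69, and correlations between samples over genes between 0.990 and 0.997. The sample vehicle 4 stood apart from the other 7: it scored 22.2 on the first principal component, which held 28.2% of the variance, against -10.4 to 5.49 in the others. Pparg measured 5.0, 4.90, 5.05 and 4.46 in GW9662 samples 1 to 4, against 4.63, 4.75, 4.99 and 5.13 in vehicle samples 1 to 4. Of the sort markers, Cd34 lay between 10.66 and 10.75 in GW9662 and between 10.49 and 10.81 in vehicle. Pdgfra lay between 4.80 and 5.13 in GW9662 and between 4.63 and 5.08 in vehicle, near the sample medians. The mean signal of 8 fibroblast markers was 10.04 to 10.18 in GW9662 and 9.91 to 10.21 in vehicle. Lists of adipocyte, keratinocyte, leukocyte, endothelial, muscle and pericyte, melanocyte and Schwann cell markers had mean signals of 4.53 to 5.48 in GW9662 and 4.55 to 5.53 in vehicle.

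Promoter sequence was available for 65 of the 73 genes, matched by symbol in RefSeq windows of 300 bases on GRCm38.p6 around the gene start, most of each window lying before it. The windows of Mrpl4, Mrpl13, Mrpl15, Mrpl19, Mrpl38, Mrpl54, Mrps34 and Mrps35 were not used here. Both strands were searched for the NRF1 core GCATGCGC, the ETS letters CCGGAAGT bound by GABPA and the YY1 letters AAGATGGC. The NRF1 core was found in 7 members, or 10.8%, against 2.71% of all 32851 windows. ETS letters were found in 10 members, or 15.4%, against 3.89%, and YY1 letters in 12 members, or 18.5%, against 2.75%. Counted by gene, as the members were, the shares over all 27025 genes were 3.05% for NRF1, 4.31% for ETS and 3.19% for YY1 letters. The direct repeat AGGTCANAGGTCA of nuclear receptors such as PPARG with its partner RXR was in the window of 0 members and in 13, or 0.0396%, of all windows. These matches describe letters in a window and do not show binding.

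Of the windows with a match, 3 are shown because the values turn on their genes: Mrps24 and Mrpl32 are among the members with the lowest GW9662 minus vehicle differences, and Mrpl42 is the member that tracked the others most closely. Sequences are from RefSeq, 5′ to 3′ on the gene's strand, and capitals mark the searched letters on either strand.
Mrps24 promoter, chr11:5707652-5707951, minus strand: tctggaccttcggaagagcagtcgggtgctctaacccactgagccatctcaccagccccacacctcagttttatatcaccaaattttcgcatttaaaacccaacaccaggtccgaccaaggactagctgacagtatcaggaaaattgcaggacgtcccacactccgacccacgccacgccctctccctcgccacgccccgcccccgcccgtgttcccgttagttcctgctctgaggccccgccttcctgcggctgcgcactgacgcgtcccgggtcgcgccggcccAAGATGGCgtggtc
Mrpl32 promoter, chr13:14612988-14613287, minus strand: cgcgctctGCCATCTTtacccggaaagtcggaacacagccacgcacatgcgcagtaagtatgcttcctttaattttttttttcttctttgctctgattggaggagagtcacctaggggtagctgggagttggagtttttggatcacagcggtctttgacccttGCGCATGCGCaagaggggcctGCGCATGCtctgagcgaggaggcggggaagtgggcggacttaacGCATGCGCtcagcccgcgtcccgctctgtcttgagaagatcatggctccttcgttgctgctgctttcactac
Mrpl42 promoter, chr10:95501900-95502199, minus strand: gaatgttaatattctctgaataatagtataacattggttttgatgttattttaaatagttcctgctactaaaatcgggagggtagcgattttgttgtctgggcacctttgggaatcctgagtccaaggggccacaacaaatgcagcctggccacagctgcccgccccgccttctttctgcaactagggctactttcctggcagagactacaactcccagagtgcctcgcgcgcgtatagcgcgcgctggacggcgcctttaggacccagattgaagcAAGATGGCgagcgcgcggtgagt
In Mrps24 the capitals are YY1 letters at bases 287 to 294 of the window, and in Mrpl42 YY1 letters at bases 278 to 285. In Mrpl32, YY1 letters on the other strand fill bases 9 to 16, and NRF1 cores fill bases 164 to 173, 185 to 192 and 229 to 236, the first of these as a core on each strand with overlap.

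Whether 6 months of PPARG antagonist changed the mitochondrial ribosome transcripts was asked by comparing GW9662 with vehicle. No member passed the test: 0 of 73 had an adjusted p under 0.05 in limma with Benjamini-Hochberg adjustment over all genes, where 0 of 17097 genes, 0.0%, did. At an unadjusted p under 0.05 there were 3 members, Mrps24, Mrpl37 and Mrpl32, all lower in GW9662, or 3 of 73 against 3.38% of all genes (1.81% on the lower side). The members' log2 fold changes, GW9662 minus vehicle, ran from -0.24 to 0.22, with a median of -0.025 and a middle range from -0.11 to 0.022. Values were below 0 in 47 members, above 0 in 25 and at 0 in Mrps7, beside a median of -0.0050 over all genes, of which 51.8% were below 0. Rescaling by quantiles, by sample medians or by the mean of the brighter genes left 44 to 48 members below 0. With each sample left out in turn the count ran from 39 (without vehicle 3) to 55 (without vehicle 4), so that single animals moved it. With the replicate number as a block, 6 members had an unadjusted p under 0.05, against 4.83% of all genes, and 0 passed adjustment. These were Mrps24 and Mrpl37 again, with Mrpl34, Mrpl30, Mrpl53 and Mrps5, while Mrpl32 was no longer among them. The unadjusted count was 9 without GW9662 2, 6 without GW9662 4 and 5 without vehicle 4, so that single animals moved it. The share over all genes is not given for these fits, so the counts are not a result about the members. Bulk RNA cannot tell fewer cells with a transcript from less of it per cell.

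**Figure D1:**
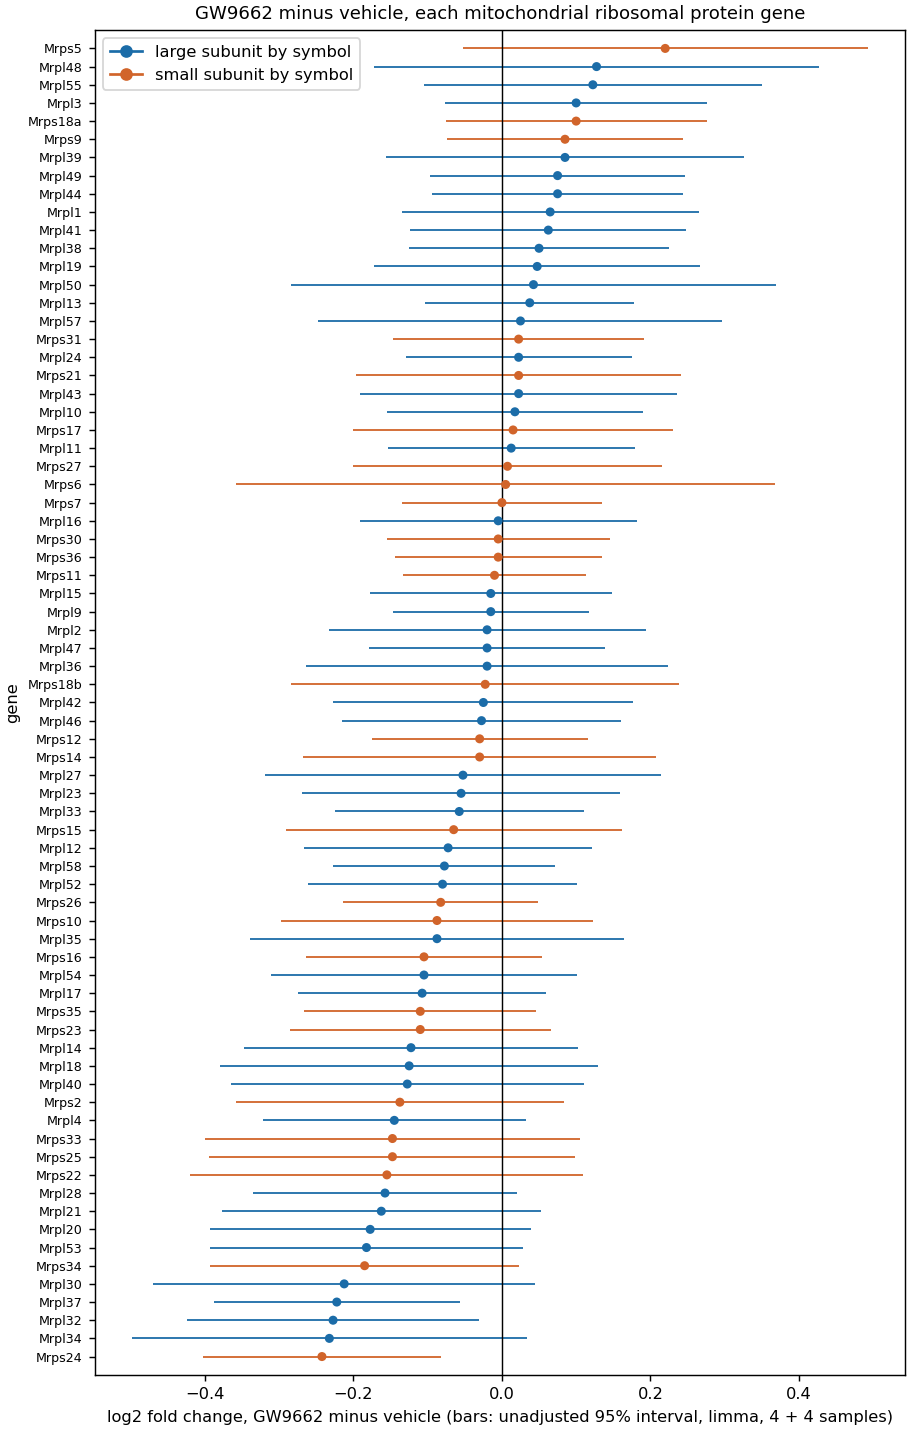
Log2 fold change of each of the 73 genes, GW9662 minus vehicle, on the horizontal axis, with genes down the page from the highest to the lowest and bars for the unadjusted 95% interval from limma (4 samples per group). Nearly all bars cross 0; those of Mrps24, Mrpl37 and Mrpl32 lie below it, and no member had an adjusted p under 0.05.

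Among the large-subunit proteins at the low end, Mrpl37, a protein with no bacterial counterpart, measured 6.08, 5.77, 5.91 and 5.90 in GW9662 samples 1 to 4, against 6.10, 6.15, 6.08 and 6.22 in vehicle samples 1 to 4. GW9662 1 reached the lowest vehicle value, and the other GW9662 samples lay below all of vehicle. The difference was -0.22 ± 0.074 (SE, n = 4 each, limma unadjusted p = 0.0134, adjusted p = 0.997, exact permutation p = 0.0571). Mrpl32, the counterpart of bacterial L32, whose maturation by the m-AAA protease is an early step of ribosome assembly in yeast and mouse, measured 5.30, 5.46, 5.38 and 5.58 in GW9662, against 5.80, 5.65, 5.72 and 5.46 in vehicle. Its groups overlapped through GW9662 4 and vehicle 4, and the difference was -0.23 ± 0.088 (SE, limma unadjusted p = 0.0274, adjusted p = 0.997; unadjusted p = 0.0566 with the block).

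Mrpl34, the counterpart of bacterial L34, measured 6.78, 7.33, 6.88 and 6.80 in GW9662, against 7.05, 7.32, 7.20 and 7.15 in vehicle. All but GW9662 2, the highest of the 8, lay below the vehicle values, and the difference was -0.23 ± 0.12 (SE), or -0.36 without GW9662 2. Mrpl30, the counterpart of bacterial L30, measured 7.01, 7.28, 7.06 and 7.5 in GW9662 and 7.31, 7.30, 7.47 and 7.62 in vehicle. It was lower in GW9662 in all 4 pairs, with GW9662 4 inside the vehicle range, and its difference was -0.21 ± 0.12 (SE). Neither had a limma unadjusted p under 0.05 without the block (0.0803 for Mrpl34 and 0.0962 for Mrpl30), while both did with it (0.0191 and 0.0313, in the same order). Mrpl53 had a limma unadjusted p of 0.0829 without the block and 0.0269 with it, and was lower in GW9662 in all 4 pairs, with a difference of -0.18.

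At the high end of the large subunit stood Mrpl48, Mrpl55 and Mrpl3. Mrpl48, which has no bacterial counterpart, measured 7.79, 7.93, 7.95 and 8.10 in GW9662 and 7.90, 8.14, 7.80 and 7.42 in vehicle. The vehicle values spanned the GW9662 ones, and the difference of 0.13 ± 0.13 (SE) was -0.0042 without vehicle 4. Mrpl55 measured 6.52, 6.92, 6.44 and 6.68 in GW9662 and 6.59, 6.54, 6.56 and 6.38 in vehicle, with GW9662 2 and 4 above all of vehicle. Mrpl3, the counterpart of bacterial L3 near the peptidyl transferase centre, measured 7.67, 7.89, 7.81 and 7.80 in GW9662 and 7.80, 7.80, 7.63 and 7.54 in vehicle. The differences were 0.12 ± 0.10 for Mrpl55 and 0.10 ± 0.079 for Mrpl3 (SE), and the intervals of all 3 genes spanned 0. Single animals moved both: Mrpl55 came to 0.029 without GW9662 2, 0.19 without GW9662 3 and 0.077 without vehicle 4, and Mrpl3 to 0.049 without vehicle 4.

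The stalk of the large subunit is where translation factors bind. Mrpl12, its flexible part and in human cells also a partner of the mitochondrial RNA polymerase, measured 6.09, 6.33, 6.18 and 5.93 in GW9662 and 6.17, 6.16, 6.32 and 6.17 in vehicle. Mrpl10, which anchors Mrpl12, measured 6.76, 7.0, 6.81 and 6.67 in GW9662 and 6.72, 6.77, 6.81 and 6.87 in vehicle. Mrpl11, at the stalk base, measured 7.85, 7.93, 7.87 and 7.65 in GW9662 and 7.83, 7.90, 7.80 and 7.72 in vehicle. In each of these the GW9662 samples were the more spread, with GW9662 2 highest and GW9662 4 lowest, and the differences were -0.072 ± 0.087, 0.018 ± 0.078 and 0.012 ± 0.075 (SE, n = 4 each) in that order. The 95% intervals reached from -0.27 to 0.12 for Mrpl12, from -0.16 to 0.19 for Mrpl10 and from -0.15 to 0.18 for Mrpl11.

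Mrpl58, a peptidyl-tRNA hydrolase built into the large subunit that can release stalled chains, measured 7.31, 7.51, 7.48 and 7.35 in GW9662 and 7.46, 7.5, 7.57 and 7.43 in vehicle, a difference of -0.078 ± 0.067 (SE). Mrpl44, an RNase III-like protein needed for large-subunit stability, measured 5.40, 5.31, 5.24 and 5.32 in GW9662 and 5.28, 5.34, 5.05 and 5.30 in vehicle, a difference of 0.075 ± 0.076 (SE). Mrpl41, another protein without bacterial counterpart, stayed between 7.92 and 8.0 in GW9662 and ranged from 7.71 to 8.11 in vehicle. The groups of all 3 genes overlapped. The difference of Mrpl58 was -0.043 without GW9662 1 and -0.051 without vehicle 3, and that of Mrpl44 was 0.048 without GW9662 1 and 0.011 without vehicle 3.

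In the small subunit, Mrps24, the counterpart of bacterial S3 at the messenger RNA entry, was the member of lowest difference and the one member whose groups did not overlap. It measured 6.81, 6.89, 6.77 and 6.77 in GW9662 samples 1 to 4, against 7.10, 7.20, 6.97 and 6.94 in vehicle samples 1 to 4. Groups without overlap on the lower side were found in 1.05% of all genes, and on the higher side in 0.708% of all genes and in 0 members. The mean was 6.81 ± 0.057 in GW9662 and 7.05 ± 0.12 in vehicle (SD, n = 4 each), a log2 difference of -0.24 ± 0.072 (SE) with a 95% interval from -0.40 to -0.082. It did not pass adjustment (limma unadjusted p = 0.00706, adjusted p = 0.997, exact permutation p = 0.0286, the smallest that 70 assignments of 8 samples can give). Groups without overlap always give this permutation p, so it adds nothing to the lack of overlap. The permutation also does not keep the pairs of animals. A second probe set of Mrps24 measured 6.39, 6.37, 6.37 and 6.60 in GW9662 and 6.67, 6.69, 6.80 and 6.54 in vehicle, and its difference was also -0.24. Its groups overlapped through GW9662 4 and vehicle 4, and both sets are of the kind whose probes can match more than 1 transcript.

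Mrps5, the counterpart of bacterial S5 and a gene whose level was linked to lifespan across mouse strains, was at the high end. It measured 6.49, 6.19, 6.28 and 5.95 in GW9662 and 6.02, 6.21, 6.04 and 5.76 in vehicle, higher in 3 of 4 pairs, with a difference of 0.22 ± 0.12 (SE, limma unadjusted p = 0.103, adjusted p = 0.997; unadjusted p = 0.0356 with the block). Its other 3 probe sets, all dimmer, had differences of -0.25, -0.025 and -0.17, and the mean of its 4 sets had one of -0.056. The direction of Mrps5 therefore depends on the probe set. The difference of the set used was 0.13 without GW9662 1 and 0.14 without vehicle 4.

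Mrps12 and Mrps7 line the decoding side and the head of the small subunit. Mrps12 measured 6.79, 7.02, 6.85 and 6.89 in GW9662 and 6.88, 6.97, 6.88 and 6.94 in vehicle, and Mrps7 6.84, 6.82, 6.76 and 6.82 in GW9662 and 6.92, 6.74, 6.81 and 6.77 in vehicle. Mrps7 averaged 6.81 in each group, with a 95% interval of the difference from -0.13 to 0.13. Mrps27, a pentatricopeptide repeat protein, measured 5.90, 6.19, 6.03 and 6.07 in GW9662 and 6.05, 5.94, 6.27 and 5.90 in vehicle. The differences of Mrps12 and Mrps27 were -0.030 ± 0.066 and 0.0075 ± 0.094 (SE), both smaller than the spread between animals.

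Mrps2, Mrps16, Mrps22 and Mrps34 are small-subunit genes whose defects cause combined oxidative phosphorylation deficiency in people. Mrps22 measured 5.54, 5.37, 4.97 and 5.04 in GW9662 and 5.41, 5.40, 5.45 and 5.28 in vehicle, with GW9662 3 and 4 below all of vehicle and GW9662 1 above it. Mrps34 measured 5.09, 5.13, 4.97 and 4.91 in GW9662 and 5.34, 5.10, 5.38 and 5.02 in vehicle. The differences were -0.14 ± 0.10 for Mrps2, -0.10 ± 0.072 for Mrps16, -0.16 ± 0.12 for Mrps22 and -0.18 ± 0.094 for Mrps34 (SE, n = 4 each), each lower in 3 of 4 pairs. The intervals of these 4 genes all spanned 0. Mrps22 came to -0.26 without GW9662 1 (limma unadjusted p = 0.0314), -0.068 without GW9662 3 and -0.092 without GW9662 4. Mrps2 came to -0.21 without GW9662 2 (limma unadjusted p = 0.0479), -0.066 without GW9662 4 and -0.088 without vehicle 2, and Mrps16 to -0.056 without GW9662 1.

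Some members carry a symbol that does not match their place. The products of Mrps18a and Mrps30 sit in the large subunit, and that of Mrps36 is known as a part of the oxoglutarate dehydrogenase complex. Mrps18a measured 7.66, 7.66, 7.49 and 7.85 in GW9662 and 7.56, 7.62, 7.59 and 7.49 in vehicle, a difference of 0.10 ± 0.079 (SE), or 0.16 without GW9662 3 and 0.038 without GW9662 4. Mrps30 ranged from 5.28 to 5.51 in GW9662 and from 5.37 to 5.51 in vehicle, and Mrps36 from 7.56 to 7.73 in GW9662 and from 7.60 to 7.73 in vehicle. Both had a difference of -0.0050, with SEs of 0.068 for Mrps30 and 0.063 for Mrps36.

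**Figure D2:**
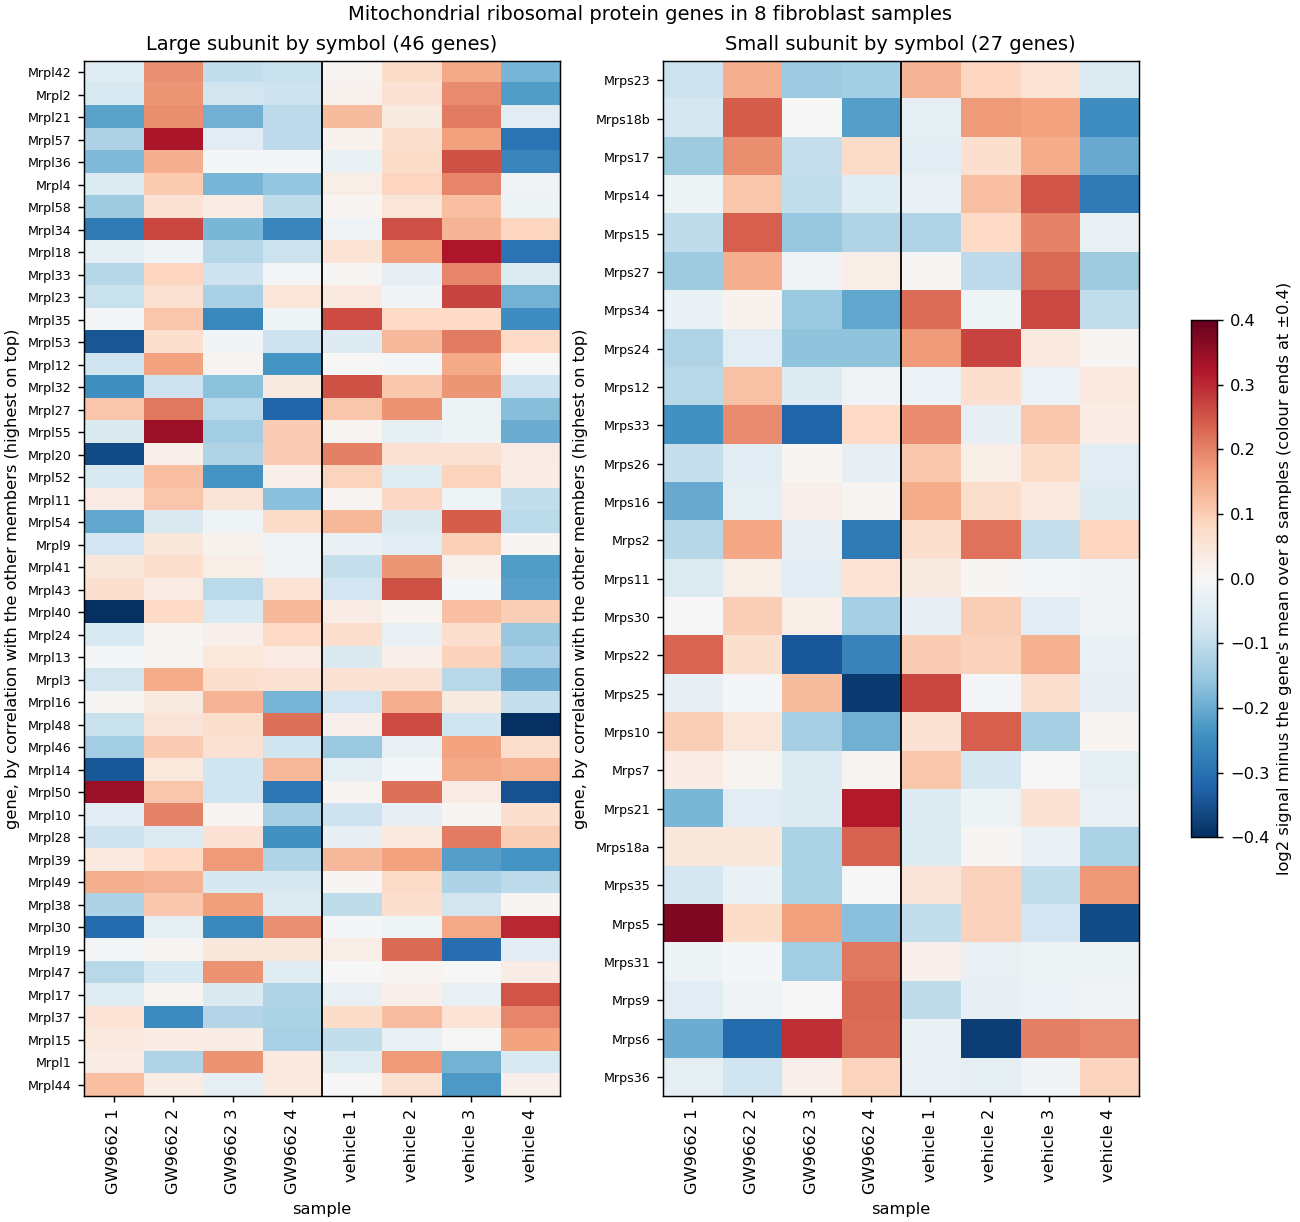
Log2 signal of each gene minus that gene's mean over the 8 samples, as colour from blue (below the mean) to red (above), with large-subunit genes on the left, small-subunit genes on the right, GW9662 samples left of vehicle samples, and genes ordered by their correlation with the other members. The upper rows are red in GW9662 2 and vehicle 3 and mostly blue in vehicle 4, while the lowest rows lack that pattern.

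The 2 subunits were compared through the mean over genes of each gene's signal minus its own mean over the 8 samples. For the large subunit this mean was -0.078, 0.074, -0.036 and -0.044 in GW9662 samples 1 to 4, against 0.017, 0.070, 0.065 and -0.067 in vehicle samples 1 to 4. For the small subunit it was -0.049, 0.048, -0.058 and -0.030 in GW9662, against 0.039, 0.040, 0.055 and -0.044 in vehicle. Both subunits were thus high in GW9662 2 and in vehicle 1 to 3 and low in the other 4 samples, and the groups overlapped. GW9662 minus vehicle was -0.042 ± 0.046 for the large and -0.044 ± 0.033 for the small subunit (SE, n = 4 each). Values were below 0 in 29 of 46 large-subunit genes (median -0.022) and in 18 of 27 small-subunit genes (median -0.030).

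The large minus small difference of these means was 0.0011 ± 0.027 in GW9662 and -0.0011 ± 0.026 in vehicle (SD, n = 4 each), so that GW9662 minus vehicle came to 0.0021 ± 0.019 (SE). With Mrps18a and Mrps30 counted in the large subunit and Mrps36 left out, an assignment of 48 and 24 genes chosen after the values had been seen, it was 0.015. With subunits by symbol it was -0.0072, -0.0046, 0.012 and 0.0080 in pairs 1 to 4. These lay close together beside the SE, which does not use the pairs. The subunit means followed each other over the 8 samples with a Pearson r of 0.940 and a Spearman rho of 0.786, and with r = 0.929 after the 2 samples farthest from the median, GW9662 2 and vehicle 2, were left out. With the mean of the brighter genes taken off each sample, r was 0.802 and rho 0.690. That r was 0.712 without GW9662 1 and GW9662 4, then the farthest. This r is a description over samples that share a sorting and amplification protocol and an array scaling.

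**Figure D3:**
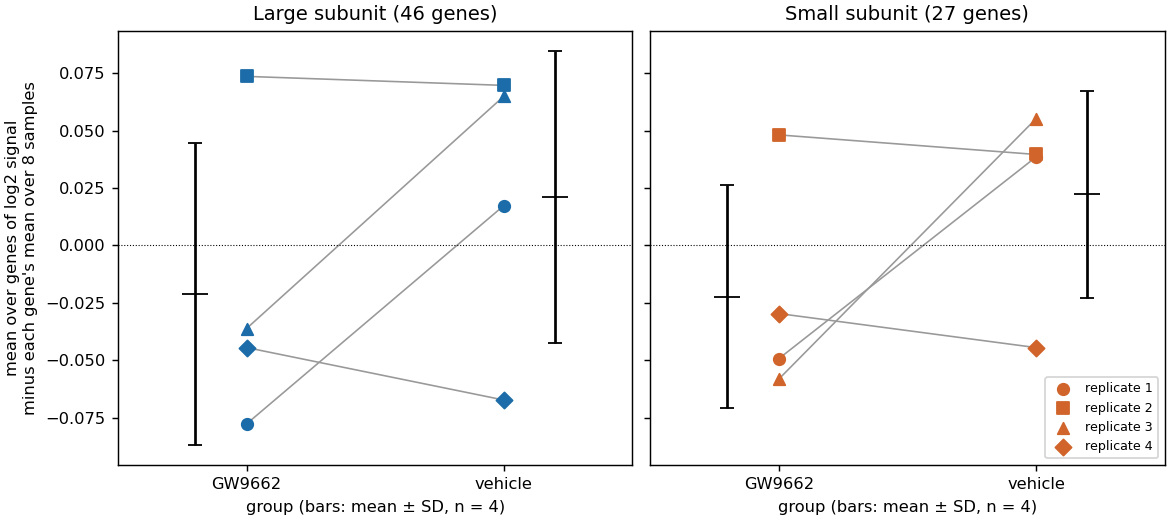
Mean over genes of log2 signal minus each gene's mean over 8 samples, for the large and the small subunit, with 1 point per animal, lines joining equal replicate numbers, and bars for the mean ± SD of 4 animals. In both panels replicates 1 and 3 are lower in GW9662 than in vehicle, and replicates 2 and 4 differ little.

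Over all 73 members the mean was -0.067, 0.064, -0.044 and -0.039 in GW9662 samples 1 to 4, against 0.025, 0.059, 0.061 and -0.059 in vehicle samples 1 to 4. GW9662 minus vehicle was -0.043 ± 0.040 (SE, n = 4 each), and -0.092, 0.0056, -0.11 and 0.020 in pairs 1 to 4, lower in 2 pairs and higher in 2. Members with a bacterial counterpart (43 genes) and those without (30 genes) had like values, -0.047 ± 0.040 and -0.037 ± 0.043 (SE). The mean of the 8546 genes above the median signal moved with the members, at r = 0.871 and rho = 0.952 over the 8 samples. With that mean taken off each sample, a scaling chosen after the values had been seen, the members stood at -0.051, 0.031, -0.035 and -0.033 in GW9662, against 0.032, 0.032, 0.032 and -0.0083 in vehicle. The difference was then -0.044 ± 0.021 (SE) and lower in 4 of 4 pairs, with GW9662 2 still above vehicle 4. Pair 2 was nearly level, at 0.0306 in GW9662 against 0.0318 in vehicle. The small subunit alone was lower in 3 of 4 pairs after this scaling.

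Co-variation between members was described by Pearson correlations of gene pairs over the 8 samples. The median over the 2628 pairs of members was 0.175, and 21.8% of the pairs had r over 0.5 while 6.58% had r under -0.5. Over all gene pairs the median was 0.0060, with 12.1% over 0.5, and over pairs of genes above the median signal it was 0.035, with 14.7% over 0.5. The median was 0.205 within the large subunit, 0.117 within the small subunit and 0.162 between the subunits. This order did not hold after group means and replicate numbers were removed, where it was 0.056 within the large subunit, 0.144 within the small and 0.182 between them. Other protein complexes were tighter in the same samples: 0.845 among the 71 cytosolic ribosomal protein genes and 0.507 among 70 genes of oxidative phosphorylation. Members had a median r of 0.307 with oxidative phosphorylation genes, above that among themselves, and of 0.075 with cytosolic ribosomal protein genes. After group means and replicate numbers were removed these were 0.351 and 0.339, in that order, both above that among members. The members' median was 0.198 without vehicle 4, 0.184 after group means were removed and 0.125 after group means and replicate numbers were removed. With the mean of the brighter genes taken off it was 0.074, against 0.058 over all gene pairs and 0 over pairs of genes above the median signal.

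**Figure D4:**
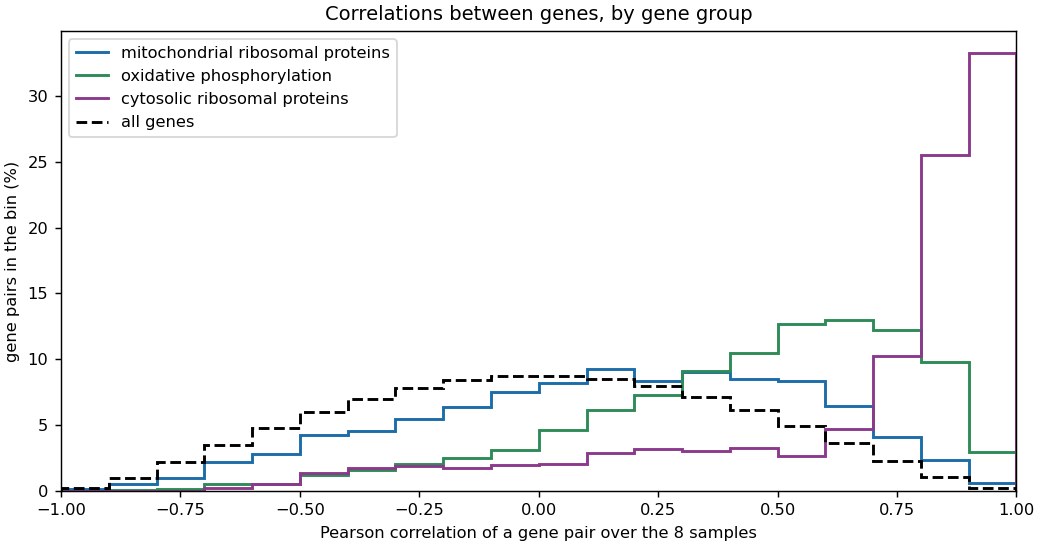
Share of gene pairs (vertical axis, percent) by Pearson correlation over the 8 samples (horizontal axis, bins of 0.1) for pairs of mitochondrial ribosomal proteins, of oxidative phosphorylation genes, of cytosolic ribosomal proteins and of all genes. The members' curve lies slightly right of that for all genes (medians 0.175 and 0.0060), and cytosolic ribosomal proteins pile up at the right edge (median 0.845).

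Each member was also set against the mean of the other 72 members. The median r was 0.439, with 31 members over 0.5, 16 over 0.7 and 14 below 0. Among other genes above the median signal the median r with the member mean was 0.187, with 7.60% over 0.7, against 21.9% of the members. The 5 highest were Mrpl42 (r = 0.906), Mrpl2 (0.888), Mrpl21 (0.882), Mrpl57 (0.859) and Mrps23 (0.859). Mrpl2, the counterpart of bacterial L2 at the peptidyl transferase centre, measured 7.96, 8.20, 7.95 and 7.94 in GW9662 and 8.04, 8.08, 8.21 and 7.80 in vehicle. Mrpl42, which has no bacterial counterpart and whose promoter is printed above, measured 8.61, 8.84, 8.56 and 8.57 in GW9662 and 8.67, 8.73, 8.81 and 8.47 in vehicle. Both were highest in GW9662 2 and vehicle 3 and lowest in vehicle 4, and their r of 0.989 was the highest of any pair of members.

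Mrpl21 measured 7.59, 7.99, 7.61 and 7.70 in GW9662 and 7.93, 7.84, 8.01 and 7.76 in vehicle. Mrpl57 measured 7.26, 7.71, 7.34 and 7.28 in GW9662 and 7.40, 7.45, 7.55 and 7.09 in vehicle. Mrps23 measured 6.69, 6.92, 6.63 and 6.64 in GW9662 and 6.91, 6.86, 6.83 and 6.72 in vehicle. All 3 were high in GW9662 2, and without it the differences of Mrpl21 and Mrps23 were -0.25 and -0.18, against -0.16 and -0.11 with it. Without vehicle 4 the r with the other members was 0.929 for Mrpl21, 0.853 for Mrpl57 and 0.874 for Mrps23. These values hold for the sets used. A second set of Mrpl21, of mean signal 6.68, had r = -0.584 with the set used and a difference of -0.030. The other sets of Mrps23 had r = 0.517 and 0.344 with the set used and differences of -0.025 and -0.0075. The dimmer second sets of Mrpl57 and Mrpl42 had r = 0.113 and 0.075, in that order. The next closest pair after Mrpl2 and Mrpl42 was Mrpl14 with Mrpl40 (r = 0.969), both lowest in GW9662 1.

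The 3 lowest members were Mrps36 (r = -0.637), Mrps6 (-0.512) and Mrpl44 (-0.441). Mrps36 measured 7.60, 7.56, 7.66 and 7.73 in GW9662 and 7.61, 7.60, 7.63 and 7.73 in vehicle, highest in both replicates 4. Mrps6, the counterpart of bacterial S6, measured 6.85, 6.74, 7.34 and 7.27 in GW9662 and 7.02, 6.67, 7.25 and 7.24 in vehicle, low in replicates 2 and high in replicates 3 and 4 of both groups. Without vehicle 4 the r of Mrps36, Mrps6 and Mrpl44 was -0.534, -0.448 and -0.450, in that order, and that of Mrpl1, at -0.503, was lower than those of Mrps6 and Mrpl44. The most opposed pairs of members were Mrpl27 with Mrps36 (r = -0.954) and Mrpl30 with Mrps5 (r = -0.941). Of the members with promoter windows, the 16 with the NRF1 core or ETS letters had a median r of 0.481 with the other members, and the 49 with neither had 0.439.

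Members with several probe sets show how far 1 set stands for its gene. The 38 such genes had 56 further sets, whose median signal was 5.20 against 7.24 for the sets used. The difference between groups had the same sign as that of the set used in 38 of the 56, and the median correlation with it over the 8 samples was 0.140, with 17 over 0.5. Mrpl34 and Mrpl30 each had a second set with r = 0.816 and 0.690, in that order, and differences of -0.18 and -0.072. With the mean of all sets of a gene, the median correlation between members was 0.188 and the median difference -0.030.

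Genes around the mitochondrial ribosome were read from lists, and 0 of their genes passed adjustment. Of 5 mitochondrial ribosomal proteins with other symbols, 4 were measured and 4 were below 0, from -0.24 to -0.0075 with a median of -0.020. Of these Gadd45gip1, a large-subunit protein, measured 5.91, 6.07, 5.85 and 5.79 in GW9662 and 6.17, 6.00, 6.10 and 6.32 in vehicle, a difference of -0.24 ± 0.086 (SE, limma unadjusted p = 0.0179, adjusted p = 0.997). Ribosome assembly factors split evenly, with 12 of 24 above 0 and 12 below (median -0.0038). Malsu1, which binds Mrpl14 on the nascent large subunit, had the lowest of these differences, -0.20 ± 0.099 (SE). Translation factors also split evenly, with 5 of 10 on each side, among them Tsfm, the exchange factor of the mitochondrial elongation factor Tu, at 5.62, 5.85, 5.65 and 5.76 in GW9662 and 5.95, 5.88, 5.92 and 6.30 in vehicle, a difference of -0.29 ± 0.099 (SE).

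Of the mitochondrial aminoacyl-tRNA synthetases, which charge the transfer RNAs, 11 of 20 were above 0 and 8 below. Genes of mitochondrial DNA transcription and replication were 5 above and 5 below 0, and regulators of mitochondrial biogenesis 12 above and 4 below of 16 (median 0.019). Oxidative phosphorylation genes were below 0 in 49 of 70 (median -0.046) and cytosolic ribosomal protein genes in 69 of 71 (median -0.10), both with the same counts after the mean of the brighter genes was taken off. Beside these, 5 of the 8 listed adipocyte markers were measured and all 5 were below 0 (median -0.090). Their mean signal was 4.64 to 4.84 in GW9662 and 4.75 to 4.97 in vehicle, near the sample medians. Values were also below 0 in 6 of 8 leukocyte, 5 of 7 muscle and pericyte and 5 of 8 endothelial markers. Of keratinocyte markers 3 of 7 were below 0, of melanocyte markers 2 of 6 and of Schwann cell markers 1 of 3. Of the 8 fibroblast markers 2 were below 0 and 5 above. The adipocyte mean was highest in vehicle 4 (0.18), where the member mean was -0.059. This was not particular to adipocyte markers. In vehicle 4 the means were 0.17 for endothelial, 0.11 for Schwann cell and 0.10 for melanocyte markers. They were 0.034 for keratinocyte, 0.029 for leukocyte, 0.017 for muscle and pericyte and -0.18 for fibroblast markers. The part of any of these marker lists in the lower values of the members and the other gene lists was not tested. The list means of oxidative phosphorylation genes were -0.11, 0.10, -0.083 and -0.0031 in GW9662 samples 1 to 4, against 0.018, 0.066, 0.11 and -0.098 in vehicle samples 1 to 4. They were high and low in the same samples as the members, with GW9662 4 near 0.

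Over the 8 samples the member mean followed that of oxidative phosphorylation at r = 0.956 and rho = 0.976, with r = 0.922 without GW9662 2 and vehicle 3, the 2 samples farthest from the median. After the mean of the brighter genes was taken off, r was 0.879 and rho 0.810, with r = 0.705 without GW9662 1 and GW9662 3, then the farthest. The r with assembly factors was 0.864 (rho = 0.714), with aminoacyl-tRNA synthetases 0.811 (rho = 0.762), with mitochondrial DNA genes 0.722 (rho = 0.619) and with translation factors 0.490 (rho = 0.333). These 4 were lower after the mean of the brighter genes was taken off: 0.576 (rho = 0.286) with assembly factors, 0.410 (rho = 0.119) with synthetases, 0.190 (rho = 0.238) with mitochondrial DNA genes and 0.167 (rho = -0.095) with translation factors. With the 4 measured ribosomal proteins of other symbols r was 0.631 (rho = 0.643). It was 0.951 without vehicle 4 and 0.368 without GW9662 2 and vehicle 3. After the mean of the brighter genes was taken off it was 0.567 (rho = 0.548). With the regulators r was 0.075 (rho = 0.214), and -0.266 (rho = 0.095) after that scaling. Cytosolic ribosomal proteins followed another course over the 8 samples as deposited. Their mean was -0.19, -0.011, -0.12 and 0.090 in GW9662, against 0.054, -0.012, 0.036 and 0.14 in vehicle. Vehicle 4 was the highest sample for them and the second lowest for the members, and their r with the member mean was 0.177 (rho = 0.095) with vehicle 4 and 0.522 without it.

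**Figure D5:**
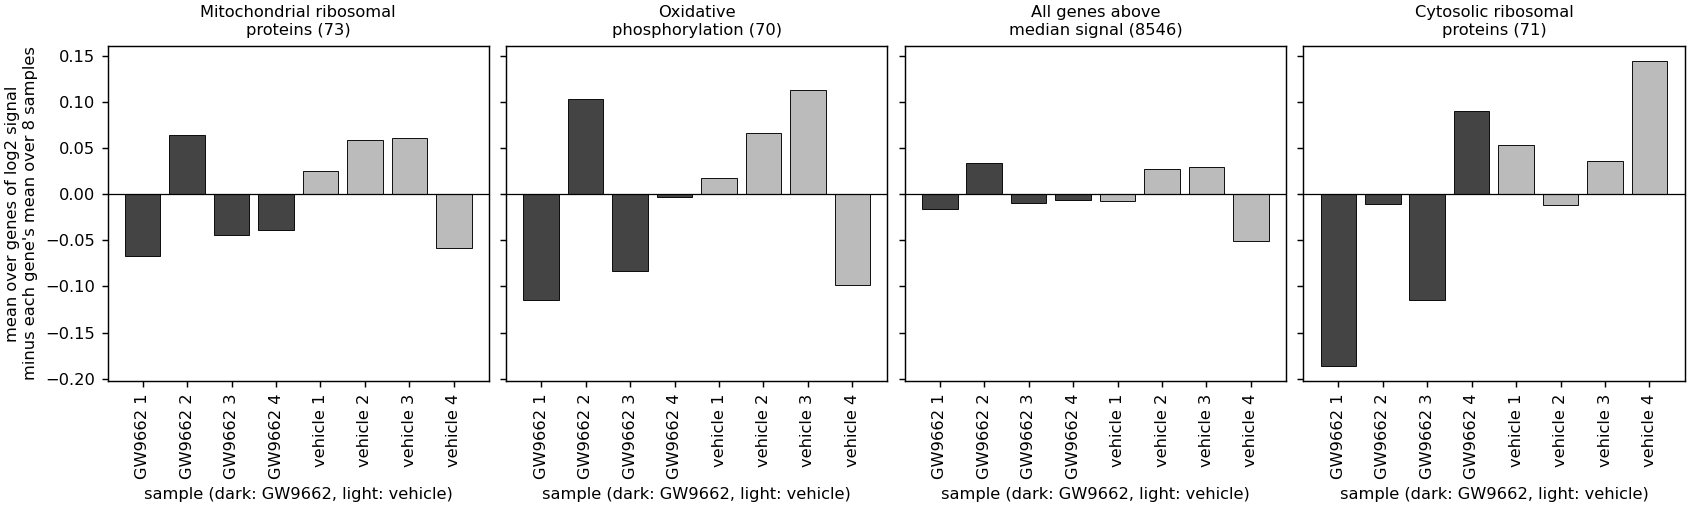
Mean over genes of log2 signal minus each gene's mean over 8 samples (vertical axis) in each sample, GW9662 dark and left, vehicle light and right, for mitochondrial ribosomal proteins, oxidative phosphorylation genes, all genes above the median signal and cytosolic ribosomal proteins. The first 3 panels share highs in GW9662 2, vehicle 2 and vehicle 3 and a low in vehicle 4, which is the highest sample for cytosolic ribosomal proteins.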

How the data were processed

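The deposited values are log2 signals per probe set, 45141 in each of 8 samples; per the submitters' processing notes the authors used RMA and the affy package (versions not stated). RMA equalises the distributions of the arrays, so that a shift shared by most transcripts is not seen. That the logarithm has base 2 is a reading of the value range, not a stated fact. Of the probe sets, 28898 had 1 gene, 551 several and 15692 none here. The main test was GW9662 minus vehicle on all 17097 genes with limma 3.58.1 in R 4.3.3 (lmFit, eBayes, no covariate), two-sided, Benjamini-Hochberg adjusted over all genes, at 0.05. For single members an exact permutation test over all 70 ways of splitting the 8 samples was added (two-sided, smallest p 0.0286). It does not keep the pairs of animals. Member means, correlations and motif counts (Python 3.11.15) are descriptions without tests. The limma script was tested on simulated data.

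The design pairs 1 animal of each group by day. Deviations from group means correlated across genes between same-numbered samples at 0.203, 0.163, 0.114 and 0.165. The best match carried the sample's own number in 8 of 8 samples. Deviations cancel within a group, so these correlations are tied to those between other numbers. Numbers were read as pairs, and the fit with the replicate block is given beside the main one. Members, gene lists, the assignment of genes to subunits and tests were chosen with earlier results of these data known. Named members were the 5 of highest and 5 of lowest difference, those without overlap or with an unadjusted p under 0.05, the 5 of highest and 3 of lowest correlation with the other members, and genes of known role; up to 2 genes of smallest p were eligible per pathway list. Mrpl1, Mrpl14, Mrpl27, Mrpl40 and Mrpl53 were named after their values were seen. The number of arrays limits the precision. A limma p-value sets a group difference against the spread between these animals, which limma moderates over all genes. In the main fit, without the block, that spread includes differences between pairs. Alternatives were the block, trend and robust variances, brighter genes only, the mean of probe sets, quantile and median scaling, array weights, each sample left out, and vehicle 4 and GW9662 4 left out together; scaling by the brighter genes and subunits by structure were added after the data had been seen.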

Additional observations from a re-analysis of the deposited data

Results flagged for a closer look

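In 3 of the 68 groups of 4 samples checked, 1 sample lay far from the other 3 by Dixon's test at the 95% level, a criterion that chance meets in about 1 of 20 groups. Mrpl2 measured 8.20 in GW9662 2, against 7.94 to 7.96 in the other GW9662 samples. Mrpl12 measured 6.32 in vehicle 3, against 6.16 to 6.17 in the other vehicle samples. The mean of the small subunit was -0.044 in vehicle 4, against 0.039 to 0.055 in the other vehicle samples.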

How the results depend on the processing

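No member passed adjustment in the 17 alternative fits, where the lowest adjusted p of a member was 0.841 in limma (vehicle 4 and GW9662 4 left out, with the replicate block); 1 gene of all passed in that fit. The count of members with an unadjusted p under 0.05, 3 in the main fit, was 6 with the replicate block, 7 with vehicle 4 and GW9662 4 left out and no block, 6 with both left out and the block, and 3 to 9 with each sample left out. Shares over all genes are given above for the main fit and the replicate block only. The other counts are therefore not a result about the members. The median difference of the members stayed below 0, from -0.079 without GW9662 2 to -0.0092 without vehicle 3. The median correlation between members moved to 0.198 without vehicle 4, 0.125 with group means and replicate numbers (the replicate block) removed, 0.197 among brighter genes only and 0.074 with the mean of the brighter genes taken off. With the block Mrpl32 no longer had an unadjusted p under 0.05 (0.0566 in limma), and Mrpl34, Mrpl30, Mrpl53 and Mrps5 did; no call by adjusted p changed. The cause of these moves was not tested. Of 526 alternative values of the 31 named members, 42 in 13 members had a turned sign, none of them called. With the mean of all probe sets, Mrps5 came to -0.056 and Mrpl42 to 0.0050. With array weights, Mrpl57 came to -0.0074, Mrps36 to 0.0043 and Mrps27 to -0.0015. With vehicle 4 and GW9662 4 left out, with or without the block, Mrpl48 came to -0.057, Mrpl57 to -0.030, Mrps6 to -0.0033, Mrps27 to -0.047 and Mrps30 to 0.033. With each sample left out in turn, values ranged from -0.0042 to 0.24 for Mrpl48, -0.092 to 0.022 for Mrpl42, -0.097 to 0.039 for Mrpl2, -0.079 to 0.084 for Mrpl57, -0.036 to 0.024 for Mrps36, -0.12 to 0.11 for Mrps6, -0.046 to 0.064 for Mrpl10, -0.022 to 0.071 for Mrpl11, -0.0017 to 0.13 for Mrpl41, -0.074 to 0.0025 for Mrps12, -0.040 to 0.084 for Mrps27 and -0.038 to 0.038 for Mrps30.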
